A study of Mus musculus with 4 samples.

Results

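The enzymes that build and desaturate fatty acids were followed in N9 cells, an immortalised mouse microglial line, after exposure to nimodipine, a dihydropyridine blocker of L-type voltage-gated calcium channels. The group had 10 listed genes: Srebf1, Acly, Acaca, Fasn, Elovl6, Scd1, Scd2, Elovl5, Fads1 and Fads2. They were chosen by symbol, and a gene was measured where a probe set of the array carried its symbol alone. That gave 9 of the 10 genes, out of 22180 genes in all, each with a single probe set. The probe set for Scd2 also carries the symbol of Mir5114, a microRNA gene that RefSeq places inside the span of Scd2, so the rule left it out; its log2 values lay between 13.02 and 13.26 on the 4 arrays. There were 4 arrays, all from the same cell line without further genetic change in the labels: 2 from cells given vehicle (vehicle 1 and vehicle 2), 1 from cells at 10 µM nimodipine and 1 from cells at 20 µM nimodipine. The labels name neither the vehicle nor the exposure time, and they do not say which vehicle array belonged to which dose. Each dose had no replicate, so a difference at a dose is 1 array against the mean of the vehicle pair. By the tests described below, none of the 9 genes passed the threshold at either dose. The largest differences from the vehicle mean were those of Fads2 at 10 µM and Acly at 20 µM, 1.36-fold and 1.31-fold above it.

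Fatty acid synthesis turns surplus citrate into long-chain acids. ATP citrate lyase cuts cytosolic citrate to acetyl-CoA, acetyl-CoA carboxylase makes malonyl-CoA, and fatty acid synthase joins these units into palmitate, using NADPH. Elongases then lengthen the chain and desaturases add double bonds, which gives oleate on one branch and, from dietary precursors, arachidonic and docosahexaenoic acid on the other. SREBP-1, encoded by Srebf1, switches on most of these genes after it is released from the endoplasmic reticulum, and the nuclear receptor LXR raises Srebf1 itself. In microglia and macrophages this pathway supplies membrane phospholipids, droplet triglycerides and the precursors of eicosanoids.

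The stretches just before the gene starts are shown for Acly, Elovl6 and Fads2, whose values had the largest differences from vehicle among the 9 genes, and for Fasn, the pathway's central enzyme. Sequences are from RefSeq on GRCm38.p6, 250 bases ending at the base before the annotated start, read 5′ to 3′ on the gene's strand: chr11:120824548-120824797 (minus) for Fasn, chr11:100528001-100528250 (minus) for Acly, chr3:129532136-129532385 (plus) for Elovl6 and chr19:10101504-10101753 (minus) for Fads2. Capitals mark matches, on either strand, to letters bound by factors of lipogenic or stress control: TCACNCCAC (SREBP), CCAAT (NF-Y), GGGCGG (Sp1), CACGTG (an E-box) and TGATGNAA (ATF4).
Fasn: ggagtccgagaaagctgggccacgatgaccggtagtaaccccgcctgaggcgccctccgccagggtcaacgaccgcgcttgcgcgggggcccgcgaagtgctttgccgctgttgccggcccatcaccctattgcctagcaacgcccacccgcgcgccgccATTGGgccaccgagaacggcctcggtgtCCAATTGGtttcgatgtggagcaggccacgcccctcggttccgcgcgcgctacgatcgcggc
Acly: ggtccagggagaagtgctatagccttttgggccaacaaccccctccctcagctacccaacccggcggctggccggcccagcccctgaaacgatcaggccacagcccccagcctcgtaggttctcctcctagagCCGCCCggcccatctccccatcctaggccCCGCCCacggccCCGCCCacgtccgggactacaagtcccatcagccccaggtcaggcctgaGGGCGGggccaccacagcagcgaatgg
Elovl6: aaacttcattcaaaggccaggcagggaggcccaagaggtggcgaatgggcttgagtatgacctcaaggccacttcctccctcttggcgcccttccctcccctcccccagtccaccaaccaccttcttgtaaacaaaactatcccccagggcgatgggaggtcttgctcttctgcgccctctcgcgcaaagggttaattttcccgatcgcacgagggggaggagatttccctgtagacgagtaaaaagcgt
Fads2: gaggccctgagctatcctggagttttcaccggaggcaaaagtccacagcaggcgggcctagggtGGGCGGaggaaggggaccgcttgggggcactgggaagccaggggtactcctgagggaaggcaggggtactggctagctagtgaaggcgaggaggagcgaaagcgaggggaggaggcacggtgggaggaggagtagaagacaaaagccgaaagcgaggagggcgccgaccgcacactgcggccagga
The Fasn window held 3 CCAAT matches, 2 of them overlapping on opposite strands. The Acly window held 4 GGGCGG matches, the Fads2 window 1, and the Elovl6 window had no match to any of the 5 patterns. RefSeq windows were at hand for 7 of the 10 listed genes, 9 windows in all because Srebf1 has 3 annotated starts; Scd1, Scd2 and Fads1 were not among them. CCAAT lay in 4 of the 9 windows and GGGCGG in 4, while 33.8% and 32.7% of all 32851 windows hold them. CACGTG lay in 1 window, that of Elovl5, and in 6.02% of all windows. The SREBP and ATF4 letters lay in 0 of the 9 windows, and in 1.05% and 3.45% of all windows. A match is a stretch of letters and not a bound site, and the lack of one says only that these letters are not in this window.

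All values are log2 expression as deposited, so a step of 1 is a 2-fold change. All 9 genes had means over the arrays at or above the median of all deposited values, 5.04, the smallest mean being 8.24. So did 12764 of all 22180 genes, so a mean above this median does not by itself mark a cell type. The labelled cell type was checked against its markers: 9 of 11 microglial markers were at or above that median, while P2ry12 and Tmem119, which mark resting microglia in tissue, had means of 4.50 and 4.68 below it. Of 5 adipocyte markers, from the cell type best known for this pathway, 2 were at or above the median, Retn and Plin1, and their summed level on the log2 scale was 7.67 and 7.56 with vehicle, 7.57 at 10 µM and 7.43 at 20 µM. Astrocyte (2 of 6), neuron (4 of 6), oligodendrocyte (4 of 5) and fibroblast and endothelial markers (3 of 6) had means of at most 7.57. The 10 µM array stood apart across the whole table. Among genes at or above the median, the median size of the difference from vehicle was 0.20 on it and 0.13 on the 20 µM array, beside 0.12 for one vehicle array against the other. The last value sets 1 array against 1 and the others 1 array against a mean of 2, so the measures are not quite alike. On the 10 µM array 12 stress-response genes had a median difference of 1.13 and 13 mitotic genes one of -1.06, beside 0.013 over all genes. Both of these lists were chosen with earlier results of these data known. Of 11 microglial markers, 9 lay below the vehicle mean there (median difference -0.15), as did 10556 of all 22180 genes. The part of these shifts in the results below was not tested.

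Srebf1, the regulator, stood at 8.33 and 8.12 with vehicle, 8.23 at 10 µM and 8.28 at 20 µM. Both nimodipine values lay between the vehicle values, and the differences from the vehicle mean were 0.0050 and 0.055, below the gap of 0.21 between the vehicle arrays.

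Acly, which supplies cytosolic acetyl-CoA, stood at 10.22 and 10.09 with vehicle, 10.12 at 10 µM and 10.54 at 20 µM. Only the 20 µM array lay outside the vehicle pair, 1.31-fold above its mean. That was the largest upward difference of the 9 genes at this dose (0.39 ± 0.15 on the log2 scale, limma SE), with an unadjusted p of 0.043 and an adjusted p of 0.76. Acaca encodes the carboxylase that commits acetyl-CoA to fatty acid synthesis. Its values were 8.61 and 8.71 with vehicle, 8.75 at 10 µM and 8.72 at 20 µM, the narrowest range of the group at 0.14. Both nimodipine arrays lay just above both vehicle arrays, by differences from their mean of 0.092 and 0.060. Fasn, the synthase, stood at 9.66 and 9.91 with vehicle, 9.70 at 10 µM and 10.00 at 20 µM. The 10 µM value lay within the vehicle pair and the 20 µM value above it, at differences of -0.090 and 0.21, beside a vehicle gap of 0.24.

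Elovl6, the elongase that carries palmitate to stearate, had the widest range of the group, 0.56. It stood at 9.42 and 9.26 with vehicle, 9.56 at 10 µM and 8.998 at 20 µM. The 10 µM array lay above both vehicle arrays (difference 0.22, 1.17-fold) and the 20 µM array below both (-0.34, 1.26-fold lower), while the vehicle arrays differed by -0.16. Scd1, which desaturates stearate to oleate, stood at 10.28 and 10.27 with vehicle, 10.13 at 10 µM and 10.00 at 20 µM. Both nimodipine arrays lay below both vehicle arrays, at differences of -0.15 and -0.27, or 1.11-fold and 1.21-fold lower. Scd1 has close relatives in Scd2, Scd3 and Scd4, and whether its probes also bind their transcripts was not examined.

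On the polyunsaturated branch, Fads2, which carries out the opening and slowest desaturation, had the largest single difference of the group. Its values were 9.68 and 9.48 with vehicle, 10.03 at 10 µM and 9.61 at 20 µM. Only the 10 µM array lay outside the vehicle pair, 1.36-fold above its mean (0.45 ± 0.16 on the log2 scale, limma SE), with an unadjusted p of 0.032 and an adjusted p of 0.25. Elovl5, which lengthens the product of Fads2, stood at 10.90 and 10.88 with vehicle, 10.72 at 10 µM and 10.85 at 20 µM. Both nimodipine arrays lay below the pair, by -0.17 and -0.043, beside a vehicle gap of 0.015. Fads1, the desaturase that completes arachidonic acid and lies close to Fads2 on the chromosome, stood at 10.62 and 10.64 with vehicle, 10.59 at 10 µM and 10.86 at 20 µM. The 10 µM value lay below the pair by a difference of -0.044 and the 20 µM value above it by 0.22. Fads2 was thus furthest from vehicle at 10 µM, where Fads1 was near it, and Fads1 at 20 µM, where Fads2 lay within the pair.

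**Figure D1:**
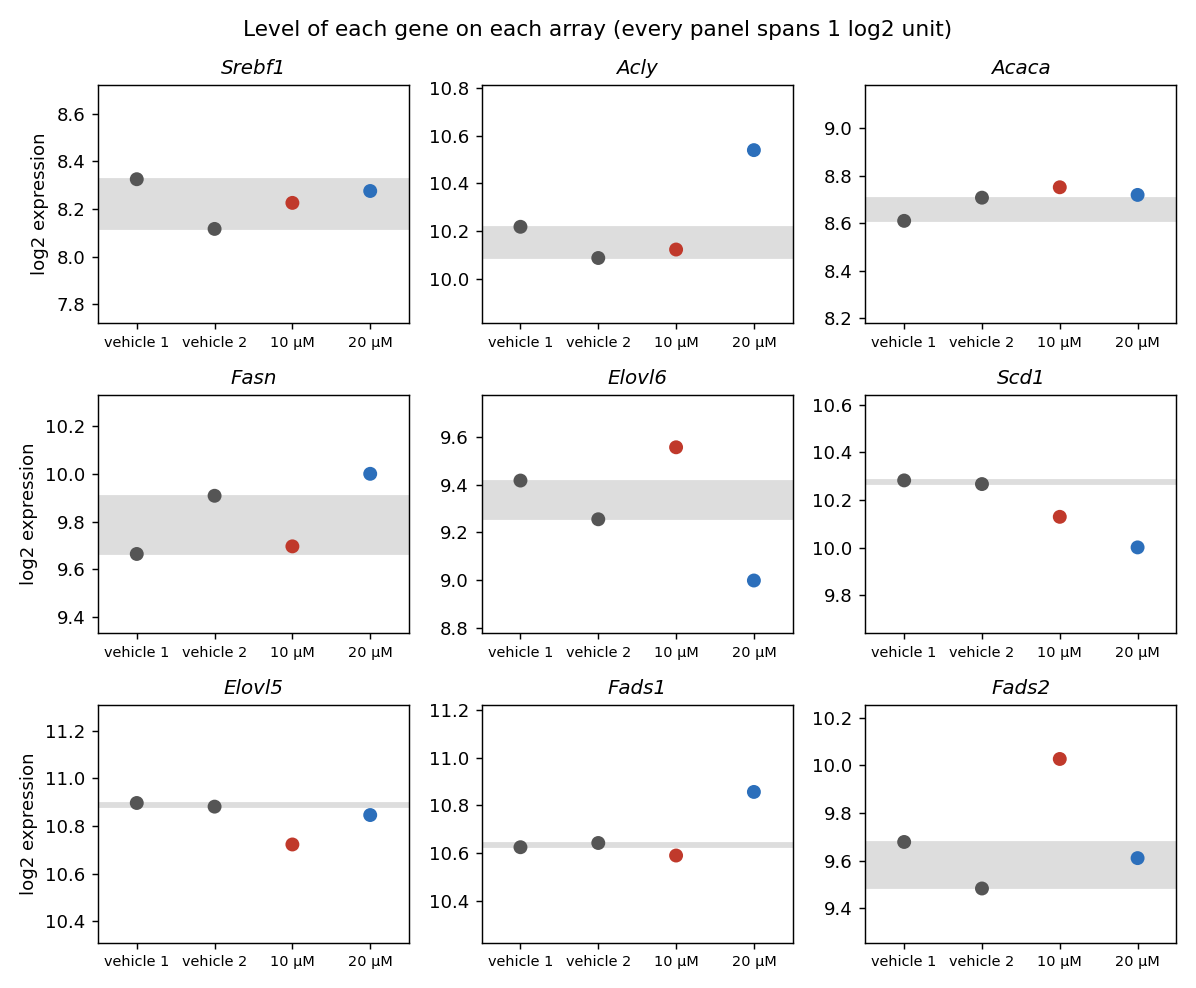
Log2 expression of each of the 9 genes on the 4 arrays, ordered by role; points are single arrays, the grey band spans the 2 vehicle arrays, and every panel covers 1 log2 unit. Elovl6 runs from 8.998 to 9.56, Fads2 reaches 10.03 at 10 µM and Acly 10.54 at 20 µM, while both Srebf1 values with nimodipine lie in the vehicle band.

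Counted by size, 0 of the 9 genes lay a full log2 unit (2-fold) or further from the vehicle mean at 10 µM, beside 1.57% of all genes. At 20 µM the count was also 0, beside 0.0857%. With a bar of 1.5-fold it remained 0 at each dose, beside 6.77% and 1.23% of all genes. The median of the 9 differences was -0.030 at the lower dose, with 4 genes higher than vehicle and 5 lower, and 0.055 at the higher dose, with 6 higher and 3 lower, beside medians over all genes of 0.013 and -0.0028. In size, 7 of the 9 differences at 10 µM and 4 at 20 µM were below the median size for genes at or above the array median. The 10 µM array lay above both vehicle arrays for 3 of the 9 genes and below both for 3, beside 39.1% and 35.4% of all genes. At 20 µM 4 lay above and 3 below, beside 34.5% and 35.1%. Acaca alone of the 9 lay above both vehicle arrays at both doses (19.2% of all genes), and Scd1 and Elovl5 lay below both (18.2%). These shares were near the background.

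**Figure D2:**
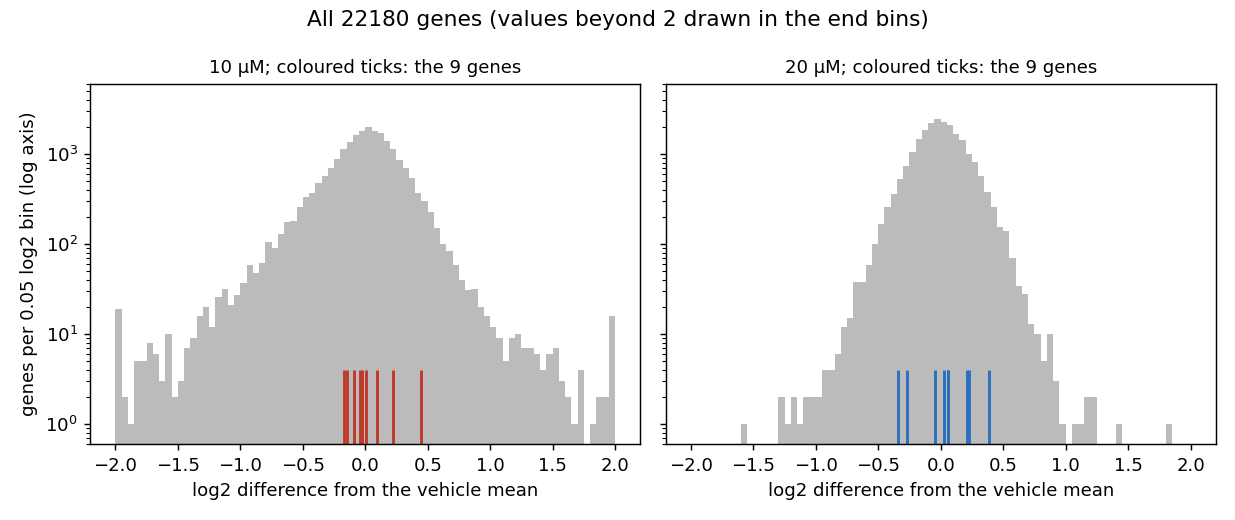
Distribution of log2 differences from the vehicle mean over all 22180 genes at 10 µM (left) and 20 µM (right), counts on a log axis, with a coloured tick for each of the 9 genes. The ticks lie between -0.17 and 0.45 on the left and between -0.34 and 0.39 on the right, in the bulk of each distribution.

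With nimodipine taken as 1 group of 2 arrays against the 2 vehicle arrays, limma called 0 of the 9 genes and 0% of all genes after Benjamini-Hochberg adjustment over 22180 genes. At an unadjusted p under 0.05 the counts were 0 of 9 and 1191 of all genes (5.37%). The smallest adjusted p among the 9 was 0.80, for Scd1, which differed by -0.21 ± 0.13 (limma SE, 2 arrays per group). In this fit the difference between the doses is part of the spread. A fit of 3 groups kept the doses apart on the assumption that single dose arrays scatter as much as the vehicle arrays do (1 residual degree of freedom, so the spread is largely that shared over genes). At 10 µM it called 0 of the 9 genes, beside 1.59% of all genes, and at 20 µM 0, beside 0% of all genes. At an unadjusted p under 0.05 there was 1 of the 9 at each dose, Fads2 and then Acly, beside 16.9% and 6.39% of all genes. The labels name no separate cultures, so the p-values rest on the scatter among 4 arrays, and that scatter may be only technical.

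The intervals show how large a change the arrays leave room for. The 95% intervals of the 9 genes in the fit of 3 groups ran from no lower than -0.52 to no higher than 0.84 at 10 µM, and from -0.72 to 0.76 at 20 µM. For all 9 genes both intervals thus lay inside a 2-fold change in either direction, as they did for 89.1% of genes at or above the array median. For each gene at each dose at least 1 bound was 0.3955 or more in size, a 1.315-fold change. A change of that size in 1 direction was thus not excluded.

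**Figure D3:**
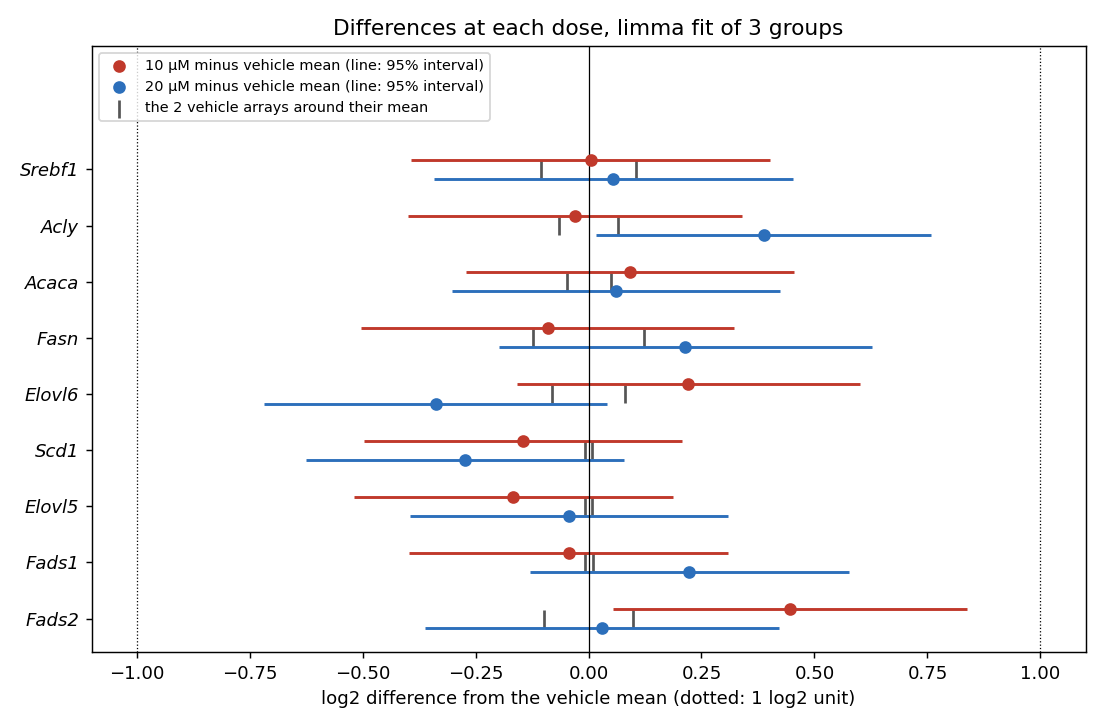
Log2 difference of the 10 µM (red) and 20 µM (blue) arrays from the vehicle mean for the 9 genes, with 95% intervals from limma's fit of 3 groups; short grey bars are the vehicle arrays. Only the intervals of Fads2 at 10 µM and Acly at 20 µM leave out 0, before any adjustment for the number of genes.

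Between the doses, 0 of the 9 genes were called, beside 0.316% of all genes. The 20 µM array stood below the 10 µM array for Elovl6 by -0.56 ± 0.18 (limma SE), or 1.47-fold, with an unadjusted p of 0.021 and an adjusted p of 0.26. Fads2 was also lower at 20 µM (-0.42), while Acly (0.42), Fasn (0.30) and Fads1 (0.27) were higher. The adjusted p was 0.38 or more for these 4 genes and the remaining members. Both doses share the vehicle arrays, so their differences from vehicle are not independent of each other.

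Elovl6, as the gene with the widest range of the 9, was set against other genes at or above the array median. The measure was the Euclidean distance between profiles centred on the vehicle mean, over 4 arrays. The other listed fatty acid synthesis and desaturation genes were left out of the search, as were predicted genes, clone names and small RNAs. The closest were Fam149b (distance 0.033), Zfp945 (0.033), Slc30a7 (0.037), Hoxa4 (0.050) and Bnip2 (0.051). Fam149b, the closest, differed from the vehicle mean by 0.24 at 10 µM and -0.35 at 20 µM. With 4 arrays such likeness is loose, and none of the 5 genes belongs to the pathway lists used here.

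The rest of the pathway was described with 12 lists around the 9 genes, in which 191 of 208 genes were measured. Genes that feed the pathway with citrate, acetyl-CoA and malonyl-CoA had median differences of -0.034 at 10 µM and 0.13 at 20 µM, with 6 of 12 and 8 of 12 higher and a vehicle difference of 0.12. Acss2, which makes acetyl-CoA from acetate, stood at 7.46 and 7.85 with vehicle, 7.19 at 10 µM and 7.88 at 20 µM. Mid1ip1, an activator of acetyl-CoA carboxylase, stood at 8.40 and 8.56, then 8.87 and 8.72, above both vehicle arrays at both doses. None of these 12 genes was called at either dose.

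Enzymes that supply NADPH held genes with opposed values. Me1, the malic enzyme that yields NADPH in the cytosol, stood at 8.02 and 8.13 with vehicle, 8.81 at 10 µM and 7.81 at 20 µM. Idh1, the cytosolic isocitrate dehydrogenase, stood at 9.34 and 9.33, then 8.56 and 9.48. Me1 was 1.67-fold higher and Idh1 1.72-fold lower at 10 µM, with limma adjusted p values of 0.088 and 0.071. The list's medians were -0.050 and -0.068, with 6 of 8 genes lower at each dose, and 0 were called. Mitochondrial fatty acid synthase genes (8 measured) had medians of -0.033 and -0.054, with 0 called; Lipt1, a lipoyl transferase, was 1.59-fold lower at 10 µM (adjusted p = 0.10).

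Among 19 other elongation and desaturation genes, 12 were higher at 10 µM and 7 at 20 µM, with medians of 0.078 and -0.059, and 0 were called. Tecr, the reductase that ends each elongation cycle and so works with Elovl6 and Elovl5, stood at 11.38 and 11.41 with vehicle, 11.82 at 10 µM and 10.96 at 20 µM. It lay above both vehicle arrays at the lower dose and below both at the higher, as Elovl6 did (adjusted p = 0.12 between the doses). Elovl5 lay below both vehicle arrays at both doses. Me1, Scap and Pla2g4a, from other lists, had the same order as Tecr, and its share over all genes was not counted. Hsd17b12, another enzyme of the elongation cycle, stood at 7.85 and 8.07, then 8.39 and 7.99. Hacd4, a dehydratase of that cycle, was 1.58-fold lower at 10 µM (adjusted p = 0.11).

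SREBP processing and lipogenic control genes had 19 of 27 lower at 10 µM (median -0.10) and 15 of 27 at 20 µM (-0.0048), with 0 called. Insig1, which retains SREBP in the endoplasmic reticulum and is itself an SREBP target, stood at 10.05 and 10.25 with vehicle, 10.84 at 10 µM and 10.05 at 20 µM, a 1.61-fold difference at 10 µM (adjusted p = 0.12). Scap, the escort that carries SREBP out, stood at 7.69 and 7.47, then 8.12 and 7.37. Ppargc1b, a co-activator of SREBP-1, lay below vehicle 1.63-fold at the lower and 1.25-fold at the higher dose (adjusted p = 0.091 and 0.76). Prkaa1, a catalytic subunit of AMPK, the kinase that inhibits acetyl-CoA carboxylase, lay below it 1.62-fold and 1.15-fold (adjusted p = 0.12 and 0.83). Cholesterol synthesis and uptake genes, the SREBP-2 side, had medians of 0.13 and 0.18 with 11 and 13 of 17 higher, and 0 called, but vehicle 2 exceeded vehicle 1 by a median of 0.21 over these genes. LXR targets had medians of -0.020 and -0.032 over 11 genes.

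Of the 191 pathway genes, limma's fit of 3 groups called 4 at 10 µM, 3 higher and 1 lower, which is 2.09% beside 1.59% of all genes. It called 0 at 20 µM. Lpcat3, which puts polyunsaturated acyl chains into phospholipids and is also an LXR target, rose at 10 µM, from 9.31 and 9.30 to 10.22, and stood at 9.39 at 20 µM (1.89-fold, adjusted p = 0.049). That call was lost with limma's robust eBayes setting (adjusted p = 0.051), and adjusted p lay between 0.0053 and 0.051 over the alternatives run. Pla2g4a, the phospholipase that frees arachidonic acid from membranes, rose from 8.05 and 8.11 to 9.04 at 10 µM and stood at 7.93 at 20 µM (1.95-fold, adjusted p = 0.047). Mboat1, an acyltransferase of phospholipid remodelling, fell from 7.78 and 7.84 to 6.09 and stood at 8.06 at 20 µM (3.30-fold, adjusted p = 0.014). Eci2, which prepares unsaturated fatty acids for oxidation, rose from 8.17 and 8.15 to 9.11 and stood at 8.22 (1.92-fold, adjusted p = 0.048). The list of acyl remodelling and eicosanoid genes, to which Lpcat3, Pla2g4a and Mboat1 belong, had medians of 0.10 and -0.10 over 21 genes. Fatty acid oxidation genes had medians of -0.065 and -0.039 over 25 genes; Cpt1a, the gate of mitochondrial oxidation, did not pass the test although it was 2.24-fold lower at 10 µM (adjusted p = 0.052).

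Genes of glycerolipid synthesis had medians of 0.017 and -0.15 (16 genes), those of lipid droplets and lipolysis 0.055 and 0.068 (16), and those of fatty acid activation and binding 0.055 and 0.078 (14), with 0 called in each. Hilpda had the largest difference of the droplet list, -0.69 at 10 µM, and differed by 0.028 at 20 µM. Lpl, the lipoprotein lipase that brings fatty acids into the cell, stood at 10.93 and 11.19 with vehicle, 10.56 at 10 µM and 11.37 at 20 µM. Fabp5, a fatty acid carrier, stood at 10.38 and 10.43, then 10.94 and 10.38.

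**Figure D4:**
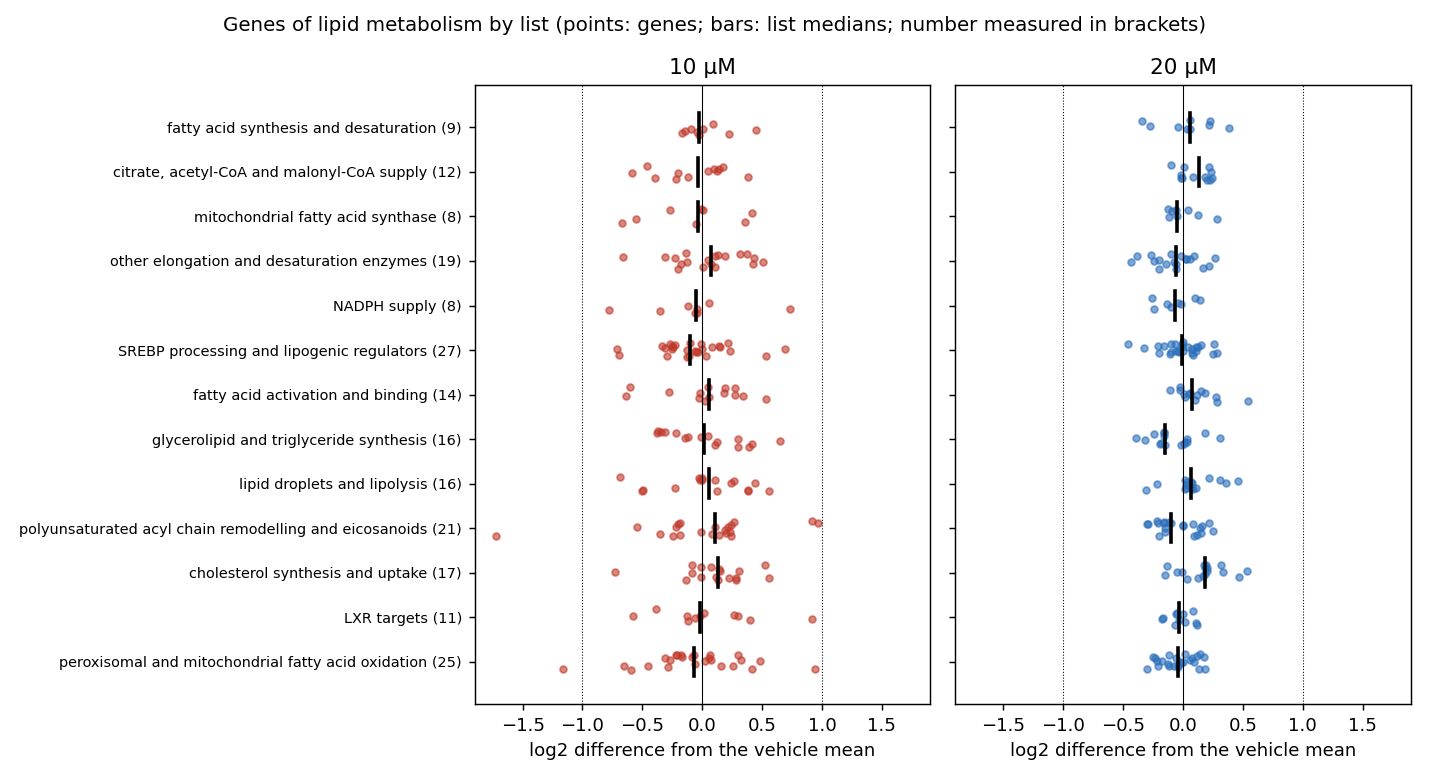
Log2 differences from the vehicle mean for the genes of 13 lists of lipid metabolism at 10 µM (left) and 20 µM (right); points are genes, bars are list medians and dotted lines mark 1 log2 unit. The 9 fatty acid synthesis and desaturation genes span -0.17 to 0.45 and -0.34 to 0.39, while Mboat1 reaches -1.72 and Pla2g4a 0.96 at 10 µM.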

How the data were processed

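RNA from N9 cells was hybridised to 4 Affymetrix arrays (2 vehicle, 1 at each dose). The deposited log2 values come from RMA in Affymetrix Expression Console (version 1.2.1.20), run by the authors per the submitters' processing notes. RMA gives the arrays one common distribution, which hides any shift that most genes share and can shrink the folds of dim genes. The genome build is not given in the sources used here. The number of arrays limits the precision.

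Of 41345 probe sets, 23521 had 1 gene symbol in the platform annotation, 1814 several and 16010 none; the brightest probe set per gene left 22180 genes. RefSeq (GRCm38.p6) held 23328 of the Entrez identifiers, and 0 symbols needed updating. limma 3.58.1 (R 4.3.3) was fitted to all genes (lmFit, eBayes) with Benjamini-Hochberg adjustment and a threshold of 0.05, after tests on simulated data. Differences at single doses were also counted at 1 or more on the log2 scale.

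The members and lists were chosen with earlier results of these data known. All 10 members were named. From each other list the rule took up to 4 genes at or above the array median with the largest difference at either dose. The text names only some of these, not always those with the largest difference. The likeness rule took 5 genes, with the members, predicted genes, clone names and small RNAs passed over. Alternatives covered dim probe sets, a gene's probe sets, array scaling, eBayes settings, thresholds, dose as a number and each array left out.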

Additional observations from a re-analysis of the deposited data

How the results depend on the processing

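The count of the 9 genes past a difference of 1, and the count called in each limma fit, was 0 under every alternative run (57 comparisons over 8 summary values, the members' median differences included). The smallest adjusted p among the 9 genes in the fit of 3 groups at 10 µM was 0.25, and between 0.094 (eBayes with a trend) and 0.25 under the alternatives; for all genes the number called there was 353 and lay between 317 and 1282. For the doses against each other the number called over all genes was 70, and between 68 and 738. Leaving out each array in turn gave 0 called members in the comparison of nimodipine with vehicle. The largest counts over all genes came from leaving out dim probe sets, where 12764 genes were tested instead of 22180. Of the 57 comparisons, some could not differ. Each of the 9 genes has 1 probe set, so averaging probe sets left its values as they were. All 9 lie at or above the array median, so leaving out dim probe sets could not alter the counts past 1. Leaving out 1 nimodipine array only repeats the test of the other dose. The members' median at 10 µM changed sign to 0.036 without vehicle 1 and at 20 µM to -0.049 without vehicle 2. Both counted as unchanged because the yardstick was the spread of the members' median level on the vehicle arrays. That yardstick is coarse, since the median over the 9 genes of vehicle 2 minus vehicle 1 was -0.015. The direction of the members' median thus depended on the vehicle array used. Single directions that turned with the vehicle array used or the scaling were those of Fasn, Acly and Srebf1 at 10 µM and of Fads2 and Srebf1 at 20 µM. The cholesterol median at 10 µM was -0.026 without vehicle 1 and 0.25 without vehicle 2. Other list medians shifted too, some in sign, yet counted as unchanged. With dim probe sets left out, the acyl remodelling and eicosanoid median at 10 µM went from 0.10 to -0.011. That of citrate, acetyl-CoA and malonyl-CoA supply at 10 µM went from -0.034 to 0.046. The glycerolipid median at 20 µM, -0.15 as reported, was -0.024 without vehicle 1 and -0.056 without vehicle 2. Of 254 alternative values for single genes and lists, 234 counted as unchanged in size or call and 19 moved by more than the vehicle spread. Another 1 lost its call (Lpcat3) and 0 reversed a call. For a single member, leaving out 1 vehicle array cannot shift the difference past that spread. Those values were bound to count as unchanged. Alternatives for the called pathway genes were chosen after seeing the data. They were run only for genes already called, so a call could be lost but none gained. The uncalled pathway genes were not recounted under those settings, some of which called more of all genes. No paired analysis was possible because the labels number only the vehicle arrays.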

Other observations

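The probe set annotated with both Scd2 and Mir5114 was left out of the counts of the report because it carries 2 symbols. RefSeq lists Mir5114 as a gene of its own inside the span of Scd2, and also as a synonym of Scd2, so the probe set lies at the Scd2 locus; how much of its signal comes from each transcript was not examined. The log2 values were 13.26 for vehicle 1, 13.09 for vehicle 2, 13.02 at 10 µM and 13.03 at 20 µM. Both nimodipine arrays lay below both vehicle arrays, by differences from their mean of -0.16 and -0.15, beside a gap of -0.16 between the vehicle arrays.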
